A study of Mus musculus with 15 samples.

Results

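The 10 genes of branched-chain amino acid (BCAA) breakdown examined here were Bcat2, Bckdha, Bckdhb, Dbt, Ivd, Mccc1, Mccc2, Hibadh, Pcca and Mut. They were taken by name from a table of raw read counts for 18804 genes, all 10 were found, and all 10 had enough counts to be tested. RNA sequencing (RNA-seq) had been performed on white adipocytes differentiated in culture from mesenchymal stem cells (MSCs) of the ears of wild-type C57BL/6J mice. The donor age and sex and the number of donors were not given in the sources used here. All cultures received methylisobutylxanthine, dexamethasone, insulin and, by their labels, troglitazone at the start of differentiation and were harvested 16 days later. The paper names troglitazone in its section on adipocyte precursors but rosiglitazone in its section on cell culture. The day 0 group stayed at 37°C throughout, the day 1 group went to 31°C on day 15 for its last day, and the day 12 group went there on day 4. Each group had 5 libraries. Whether the 5 libraries of a group stand for different mice or different dishes is not labelled, so the p-values measure the spread between these libraries, which may be technical. The time spent at 31°C and the stage of differentiation at the move cannot be told apart in this design.

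Leucine, isoleucine and valine are the branched-chain amino acids, and their breakdown takes place largely in mitochondria. An aminotransferase first removes the amino group, the branched-chain ketoacid dehydrogenase (BCKDH) complex then commits the carbon skeleton to oxidation, and separate branches carry each skeleton on to acetyl-CoA, acetoacetate or propionyl-CoA. Differentiated adipocytes are known for active BCAA breakdown, whose products can enter the tricarboxylic acid (TCA) cycle or be used for fatty acid synthesis.

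The total count per library was 92.4 to 133 M (M, mega) at day 0, 74.4 to 105 M at day 1 and 64.6 to 91.3 M at day 12, and the 10 genes had between 769 and 15093 counts in each library. Levels are given in CPM, counts brought to 1 library size with trimmed mean of M values (TMM) factors. The libraries expressed adipocyte markers, with a summed level of 8 genes of 4210 to 4827 CPM at day 0, 5166 to 5731 CPM at day 1 and 4442 to 4991 CPM at day 12. Most of that sum was Lpl, Fabp4 and Adipoq, and its members went in both directions. With calls made at a fold change over 1.5 and an adjusted p under 0.05 (edgeR), at day 12, Adipoq (log2 fold change -1.24), Cidec (-1.59), Lep (-0.69) and Pparg (-0.59, just past the fold limit) were called lower and Fabp4 (0.97) higher, and at day 1 Cidec (-2.62) and Lep (-0.65) were called lower and Fabp4 (0.76) higher. The brown adipocyte markers Ucp1, Cidea and Elovl3 had mean levels of at most 0.150 CPM in each group, and Dio2 made up nearly all of the summed level of the 5 brown or beige markers, which was 118 to 216, 169 to 237 and 68.2 to 82.5 CPM at days 0, 1 and 12. The summed level of 5 cell cycle genes was 48.6 to 59.3 CPM at day 0, 58.3 to 68.8 CPM at day 1 and 148 to 179 CPM at day 12. That of 5 mesothelial genes was at most 2.25 CPM at day 0 and 23.4 to 38.3 CPM at day 12, almost all of it Msln, and that of 7 progenitor or stromal genes was 1340 to 1397 CPM at day 0, 1399 to 1476 CPM at day 1 and 1132 to 1165 CPM at day 12. Of these 7, Ly6a went from a mean of 591 CPM at day 0 to 221 CPM at day 12 (log2 fold change -1.42, called) and Dlk1 from 38.3 to 20.4 CPM (-0.90, called), while Pdgfra went from 562 to 712 CPM (0.34, not called). The summed level of 3 macrophage genes was 6.63 to 9.05 CPM at day 0, 9.82 to 12.96 CPM at day 1 and 5.06 to 5.99 CPM at day 12. That of 3 endothelial genes was at most 0.65 CPM at day 0, 0.69 CPM at day 1 and 1.37 CPM at day 12. The part of these shifts in the results on BCAA genes was not tested. In bulk RNA, fewer cells of a type and less RNA per cell cannot be told apart.

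After 1 day at 31°C a subset of the 10 genes was lower. Bcat2, Mccc1, Pcca and Mut fell by more than 1.5-fold and no gene of the 10 rose by that much. Calls here required both a fold change over 1.5 and an adjusted p under 0.05 (quasi-likelihood test of edgeR with Benjamini-Hochberg adjustment), the limits that the study set. By this rule 0 of the 10 genes were called higher, against 7.71% of all 14293 genes tested, and 4 were called lower, against 13.4% of all genes. By the adjusted p alone, 1 gene was higher (Bckdha), against 35.3% of all genes, and 8 were lower (all but Bckdha and Ivd), against 36.2%. At an unadjusted p under 0.05 the counts were also 1 and 8, and DESeq2 called 0 higher and 4 lower. In 9 of the 10 genes the day 0 and day 1 libraries did not overlap, which was also true of 57.4% of all genes. The median log2 fold change of the 10 was -0.29 and that of all genes tested was -0.01.

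The longer stay of 12 days at 31°C gave a partly different group of 4. Bcat2, Mccc1 and Pcca were again lower, Bckdhb was called, and Mut was not. Of the 10 genes, 0 were called higher, against 13.0% of all genes, and 4 were called lower, against 16.2%. By the adjusted p alone, 0 were higher, against 39.2% of all genes, and 9 were lower (all but Bckdha), against 37.4%. An unadjusted p under 0.05 gave 0 and 9 as well, and DESeq2 called 0 higher and 4 lower. The groups did not overlap for 9 of the 10 genes and for 64.6% of all genes. Their median log2 fold change was -0.38, and that of all genes was 0.01. Both comparisons use the same day 0 libraries, so their likeness is not independent support for either.

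The direct comparison of day 12 with day 1 asked whether the longer stay differed from the shorter one. No gene of the 10 was called in either direction, against 10.6% of all genes called higher and 8.53% called lower. By the adjusted p alone, 2 genes were higher at day 12 (Bcat2 and Mut), against 34.3% of all genes, and 6 were lower (Bckdha, Bckdhb, Ivd, Mccc1, Hibadh and Pcca), against 32.8%. At an unadjusted p under 0.05 in edgeR the counts were 2 and 7, and DESeq2 also called 0 in either direction. For 5 of the 10 genes the groups did not overlap, against 52.5% of all genes. Scaling to total counts moved the median of all genes by about 0.2 on the log2 scale in the comparisons with day 12, to 0.21 when set against day 0 and to 0.18 when set against day 1. With that scaling 2 of the 10 genes (Mccc1 and Pcca) remained called lower at day 12 against day 0, beside 1668 of 14293 genes. The median over the 10 was -0.18. Between days 12 and 1, total counts gave 4 of the 10 genes higher and 4 lower by the adjusted p alone. Of all genes, 7731 were higher and 2667 lower by the same rule. The median over the 10 was then 0.05, in place of -0.12.

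**Figure D1:**
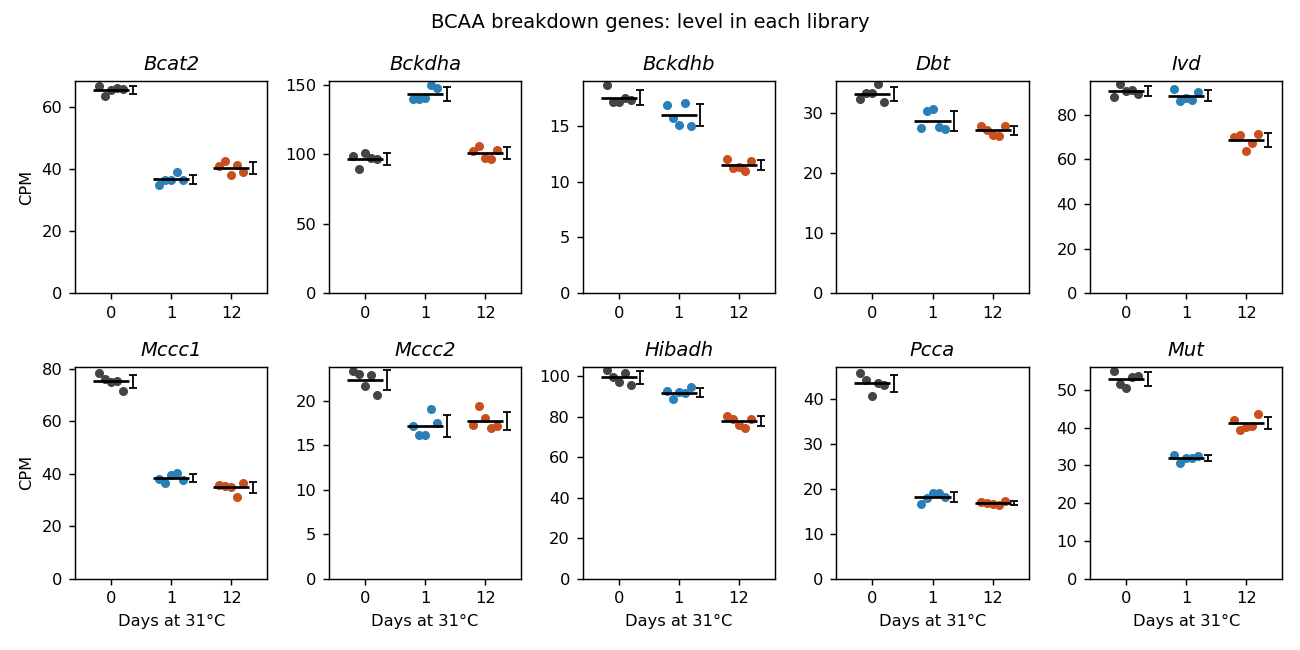
Level of each of the 10 genes in CPM (vertical axes, starting at 0) in each of the 5 libraries per group, by days at 31°C. Points are libraries, the line is the group mean and the bar to its right spans 1 SD either side. Pcca and Mccc1 libraries at days 1 and 12 lie far below those at day 0, Bckdha stands above the other groups at day 1, and Bckdhb and Ivd are lowest at day 12.

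**Figure D2:**
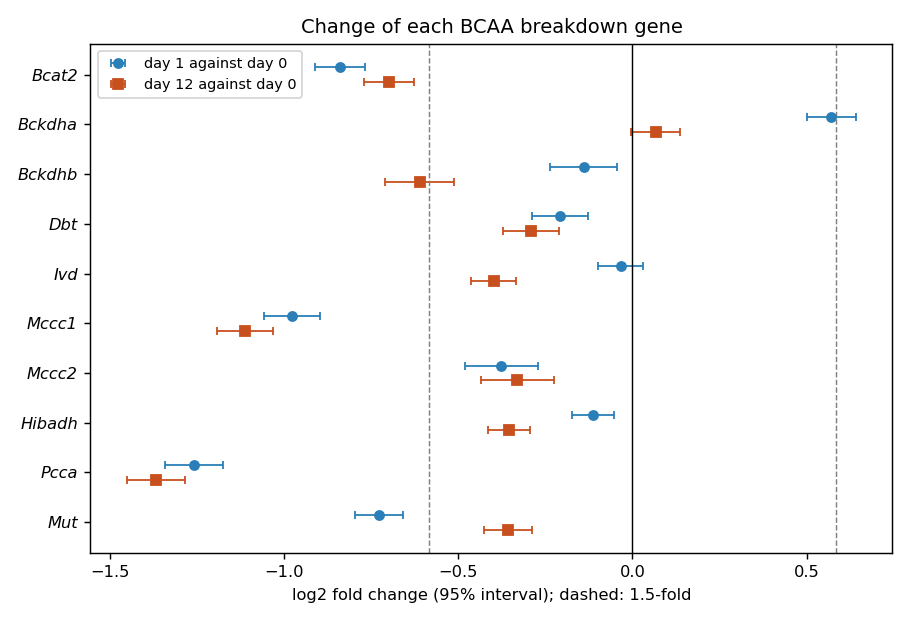
Change of each of the 10 genes as log2 fold change (horizontal axis) at day 1 (circles) and day 12 (squares) against day 0, with 95% intervals and dashed lines at 1.5-fold. The largest fall is that of Pcca, at -1.26 and -1.37, and Bckdha at day 1 (0.57) is the point that stands clearly above 0.

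Pcca and Mccc1 carried the largest falls, and Bcat2 fell at both times, while Bckdha went the other way at day 1, so the windows around the start sites of these 4 genes are shown. Each runs 5′ to 3′ from 250 bases before the annotated start to 50 bases after it, from RefSeq on build GRCm38.p6. Letters in capitals mark matches to a CCAAT box (CCAAT) or a GC box (GGGCGG), on either strand.
Pcca, chr14:122534078-122534377, plus strand: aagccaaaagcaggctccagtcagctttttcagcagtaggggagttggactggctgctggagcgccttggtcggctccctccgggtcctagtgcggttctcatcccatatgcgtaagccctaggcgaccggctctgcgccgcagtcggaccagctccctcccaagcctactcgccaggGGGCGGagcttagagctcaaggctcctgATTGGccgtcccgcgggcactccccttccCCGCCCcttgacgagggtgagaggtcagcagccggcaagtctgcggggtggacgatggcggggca
Mccc1, chr3:36000629-36000928, minus strand: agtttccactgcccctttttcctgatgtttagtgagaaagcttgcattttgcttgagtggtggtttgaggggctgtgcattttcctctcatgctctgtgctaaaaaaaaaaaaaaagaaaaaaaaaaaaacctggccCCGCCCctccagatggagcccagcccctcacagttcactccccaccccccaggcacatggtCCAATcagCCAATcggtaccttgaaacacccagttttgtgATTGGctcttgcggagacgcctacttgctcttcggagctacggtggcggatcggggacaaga
Bcat2, chr7:45569903-45570202, plus strand: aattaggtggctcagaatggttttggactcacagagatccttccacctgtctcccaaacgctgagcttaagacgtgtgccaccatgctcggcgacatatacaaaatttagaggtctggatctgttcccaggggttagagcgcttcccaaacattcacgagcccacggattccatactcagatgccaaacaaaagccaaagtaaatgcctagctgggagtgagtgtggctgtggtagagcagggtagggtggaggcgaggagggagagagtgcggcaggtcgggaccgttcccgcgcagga
Bckdha, chr7:25658712-25659011, minus strand: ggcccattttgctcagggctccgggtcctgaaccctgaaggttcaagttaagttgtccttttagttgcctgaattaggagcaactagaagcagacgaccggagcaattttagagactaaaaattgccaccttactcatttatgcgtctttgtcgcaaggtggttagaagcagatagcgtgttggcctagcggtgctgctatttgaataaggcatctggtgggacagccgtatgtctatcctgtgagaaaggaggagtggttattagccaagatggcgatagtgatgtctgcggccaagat
The Pcca window held 1 CCAAT box and 2 GC boxes, and the Mccc1 window held 3 CCAAT boxes and 1 GC box. The Bcat2 and Bckdha windows held neither. The table holds a second window for Pcca, further upstream (chr14:122484115-122484414, 1 CCAAT box and no GC box), and for Bcat2, further downstream (chr7:45571029-45571328, neither), and the window at the gene start of the annotation is the one shown. Over all 32851 windows in the RefSeq table, 37.4% held a CCAAT box and 35.7% a GC box. An E-box (CACGTG, in 7.15% of all windows), a cyclic AMP response element (TGACGTCA, 1.79%), a TATA box (TATAAA, 13.6%) and an estrogen-related receptor site (TCAAGGTCA, 0.423%) were also searched on both strands and occurred in none of these 4 windows. Among the other genes, Ivd had 4 CCAAT boxes, Hibadh 1 CCAAT box and 3 GC boxes, and Mccc2 3 CCAAT boxes, of which a pair overlapped each other, and 1 E-box. Bckdhb had 2 CCAAT boxes and 3 GC boxes in its window at the annotated gene start and 1 CCAAT box in a second window. Windows were matched for 8 of the 10 genes, and Dbt and Mut were without one. A match is a description of the letters in the window only.

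Bcat2 encodes the mitochondrial branched-chain aminotransferase, the first step of breakdown. The gene lies at chr7:45570153-45589711 on the plus strand (GRCm38). Its level in the 5 day 0 libraries was 66.7, 63.4, 65.3, 66.1 and 65.8 CPM, at day 1 it was 34.8, 36.3, 36.6, 38.9 and 36.4 CPM, and at day 12 it was 41.1, 42.5, 38.0, 41.3 and 39.0 CPM. All cool libraries lay below all day 0 libraries, and the day 1 and day 12 libraries overlapped. The mean fell from 65.5 ± 1.25 CPM (SD, n = 5) to 36.6 ± 1.46 CPM at day 1, a log2 fold change of -0.84 ± 0.0345 (SE; edgeR adjusted p = 2.64e-16). At day 12 it was 40.4 ± 1.84 CPM, a log2 fold change of -0.70 ± 0.0343 (edgeR adjusted p = 3.66e-15), or -0.50 with total counts, which is under the fold limit. Day 12 was 0.14 log2 units above day 1 (edgeR adjusted p = 0.00105). An antisense gene, 0610005C13Rik, covers 15.9% of the exon bases of Bcat2 but had 0 to 2 counts per library.

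BCKDH is the committed step, and its subunits moved apart. Bckdha encodes the alpha subunit of its E1 decarboxylase and lies at chr7:25629946-25658981 on the minus strand. Day 0 libraries held 98.8, 89.3, 100.5, 97.5 and 96.7 CPM of Bckdha, day 1 libraries 139, 140.1, 140.3, 149.7 and 148 CPM, and day 12 libraries 103, 106, 97.2, 96.3 and 103 CPM. Every day 1 library was above every library of the other groups, and day 0 and day 12 libraries overlapped. The means were 96.6 ± 4.31, 143 ± 4.87 and 101 ± 4.23 CPM at days 0, 1 and 12. The log2 fold change at day 1 was 0.57 ± 0.0342 (edgeR adjusted p = 2.88e-13), just under the fold limit of 0.585, and without day 0 replicate 3 or with total counts it was 0.59, just over it. At day 12 it was 0.07 (95% interval -0.004 to 0.14, edgeR adjusted p = 0.0797). With total counts the day 12 value was 0.26, higher than day 0 by the adjusted p. Day 12 was 0.50 log2 units below day 1, a fold change of 1.42 (edgeR adjusted p = 3.82e-12). Exons of B3gnt8 on the opposite strand cover 61.7% of the exon bases of Bckdha, and the strand setting of the counting was not stated. B3gnt8 itself was listed at 2.06 ± 0.224, 1.40 ± 0.335 and 0.732 ± 0.211 CPM at days 0, 1 and 12, a low level whose mean was below that of day 0 in both cool groups.

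Bckdhb, the beta subunit of E1, changed late. The gene lies at chr9:83925145-84124240 on the plus strand. It was at 18.6, 17.1, 17.1, 17.5 and 17.3 CPM in the day 0 libraries, at 16.9, 15.7, 15.1, 17.0 and 15.0 CPM in the day 1 libraries and at 12.0, 11.2, 11.3, 11.0 and 11.9 CPM in the day 12 libraries. No day 12 library reached the lowest library of either other group, and the day 1 libraries lay closely under those of day 0. From 17.6 ± 0.629 CPM at day 0, the mean was 16.0 ± 0.981 CPM at day 1, a log2 fold change of -0.14 ± 0.0468 (edgeR adjusted p = 0.0103) that was well under the fold limit. At day 12 the mean had fallen to 11.5 ± 0.455 CPM, with a log2 fold change of -0.61 ± 0.0477 (edgeR adjusted p = 2.69e-11). With total counts this value was -0.42 and did not reach the fold limit. Against day 1 the day 12 level was lower by a log2 fold change of -0.47 (edgeR adjusted p = 6.43e-09).

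Dbt encodes the E2 transacylase that forms the core of BCKDH, at chr3:116513070-116549981 on the plus strand. Its libraries ranged from 31.9 to 35.0 CPM (median 33.3) at day 0, from 27.4 to 30.8 CPM (median 27.7) at day 1 and from 26.3 to 27.9 CPM (median 27.3) at day 12. Both cool groups lay below day 0 and overlapped each other. The means were 33.2 ± 1.17, 28.8 ± 1.64 and 27.2 ± 0.747 CPM, with log2 fold changes of -0.21 at day 1 (edgeR adjusted p = 4.57e-05) and -0.29 at day 12 (edgeR adjusted p = 3.45e-07), neither of which reached the fold limit. Day 12 against day 1 was -0.08 (edgeR adjusted p = 0.0674), and with total counts that value was 0.090.

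In the leucine branch, Mccc1 was called lower at both times, and Ivd and Mccc2 were not called. Ivd encodes isovaleryl-CoA dehydrogenase and lies at chr2:118861954-118882909 on the plus strand. Its libraries ranged from 87.8 to 93.5 CPM at day 0, from 86.1 to 91.5 CPM at day 1 and from 63.6 to 71.2 CPM at day 12. Day 0 and day 1 overlapped, and all day 12 libraries were below both. The mean was 90.4 ± 2.13 CPM at day 0 and 88.4 ± 2.43 CPM at day 1, a log2 fold change of -0.03 with a 95% interval of -0.10 to 0.03 (edgeR adjusted p = 0.347). At 68.6 ± 3.16 CPM, the day 12 mean was lower by a log2 fold change of -0.40 (edgeR adjusted p = 3.55e-11) against day 0 and -0.36 (edgeR adjusted p = 3.43e-10) against day 1, both under the fold limit.

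Mccc1 encodes the biotin-carrying alpha subunit of 3-methylcrotonyl-CoA carboxylase, at chr3:35959312-36000678 on the minus strand. The day 0 libraries had 78.4, 76.1, 75.0, 75.2 and 71.5 CPM, those of day 1 had 37.9, 36.3, 39.4, 40.1 and 37.4 CPM, and those of day 12 had 35.9, 35.4, 34.9, 31.3 and 36.4 CPM. The lowest day 0 library was well above the highest cool library. Mccc1 fell from 75.2 ± 2.49 CPM to 38.2 ± 1.52 CPM at day 1, or 50.8% of the day 0 mean, and stood at 34.8 ± 2.04 CPM at day 12, or 46.2%. The log2 fold changes were -0.98 ± 0.0385 (edgeR adjusted p = 1.22e-16) and -1.11 ± 0.0387 (edgeR adjusted p = 4.60e-18). Day 12 against day 1 was -0.13 (edgeR adjusted p = 0.00415), which turned to 0.038 with total counts. Other genes on the opposite strand cover 5.60% of its exon bases.

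Mccc2 encodes the beta subunit of the same carboxylase, at chr13:99948530-100015639 on the minus strand. Its levels were lower and spread from 20.6 to 23.3 CPM at day 0, from 16.1 to 19.1 CPM at day 1 and from 16.9 to 19.4 CPM at day 12. The cool groups overlapped each other and not day 0. Means of 22.3 ± 1.14, 17.2 ± 1.23 and 17.8 ± 0.997 CPM gave log2 fold changes of -0.38 at day 1 (edgeR adjusted p = 4.46e-07) and -0.33 at day 12 (edgeR adjusted p = 2.42e-06), both under the fold limit, and 0.05 between day 12 and day 1 (edgeR adjusted p = 0.447, 95% interval -0.06 to 0.15).

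Hibadh encodes 3-hydroxyisobutyrate dehydrogenase of the valine branch, at chr6:52546228-52640389 on the minus strand. The ranges were 95.7 to 103 CPM at day 0, 88.8 to 94.7 CPM at day 1 and 74.5 to 80.4 CPM at day 12, and the 3 groups did not overlap. From a mean of 99.4 ± 3.10 CPM at day 0 the level stepped down to 91.9 ± 2.14 CPM at day 1 and 77.7 ± 2.49 CPM at day 12. These were log2 fold changes of -0.11 (edgeR adjusted p = 0.00144) and -0.35 (edgeR adjusted p = 7.23e-11) against day 0 and -0.24 (edgeR adjusted p = 9.86e-08) between day 12 and day 1, none past the fold limit.

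Propionyl-CoA, the product of valine and isoleucine and of odd-chain fatty acids, is carboxylated and then isomerized to succinyl-CoA, and both genes of this branch changed. Pcca encodes the biotin-carrying alpha subunit of propionyl-CoA carboxylase, at chr14:122534324-122891100 on the plus strand. It had 45.8, 44.3, 40.8, 43.7 and 43.2 CPM in the day 0 libraries, 16.6, 18.0, 19.2, 19.1 and 18.2 CPM in the day 1 libraries and 17.1, 16.8, 16.7, 16.4 and 17.4 CPM in the day 12 libraries. All 10 cool libraries lay under 20 CPM and all day 0 libraries above 40 CPM. Pcca had the largest fall of the 10 genes at both times, from 43.6 ± 1.83 CPM to 18.2 ± 1.03 CPM (41.8% of the day 0 mean) at day 1 and 16.9 ± 0.367 CPM (38.8%) at day 12. Its log2 fold changes were -1.26 ± 0.0404 (edgeR adjusted p = 2.83e-18) and -1.37 ± 0.0406 (edgeR adjusted p = 2.27e-19). Day 12 against day 1 was -0.11 (edgeR adjusted p = 0.0247) with overlapping libraries, and 0.063 with total counts. Ggact on the opposite strand covers 4.63% of its exon bases.

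Mut encodes methylmalonyl-CoA mutase, the cobalamin-dependent last step, at chr17:40934685-40961988 on the plus strand. Its levels were 54.9, 51.7, 50.5, 53.4 and 53.7 CPM in the day 0 libraries, 32.6, 30.6, 31.9, 31.9 and 32.5 CPM in the day 1 libraries and 42.1, 39.5, 40.3, 40.5 and 43.7 CPM in the day 12 libraries. The 3 groups were fully separate, with day 12 in the middle. Mut fell from 52.8 ± 1.76 to 31.9 ± 0.779 CPM at day 1, a log2 fold change of -0.73 ± 0.0339 (edgeR adjusted p = 2.71e-15), and was at 41.2 ± 1.67 CPM at day 12, a log2 fold change of -0.36 ± 0.0334 (edgeR adjusted p = 7.27e-10) that was under the fold limit. Day 12 was above day 1 by a log2 fold change of 0.37 (edgeR adjusted p = 1.09e-09). Mut was 1 of the 2 genes, with Bcat2, that were higher at day 12 than at day 1 by the adjusted p.

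Library numbers in the labels fall into a larger series of 11 libraries and a smaller one of 4 (1 at day 0, 2 at day 1 and 1 at day 12). Within the larger series the counts of the 10 genes called were also 0 higher and 4 lower against day 0 at both times and 0 in either direction between days 12 and 1. The log2 fold change of Pcca within these libraries was -1.28 at day 1 and -1.38 at day 12, and that of Bckdha at day 1 was 0.54.

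Levels of different genes were compared per kilobase of the principal transcript, and the order depends on that choice of length. With principal transcripts, at day 0, Hibadh (54.5 ± 1.70 CPM per kb) and Bckdha (50.9 ± 2.27) were highest. Bcat2 (36.9 ± 0.707), Mccc1 (30.6 ± 1.01), Ivd (24.7 ± 0.581) and Pcca (16.8 ± 0.705) followed in that order. Below them came Mut (14.4 ± 0.478), Bckdhb (11.9 ± 0.427), Mccc2 (10.5 ± 0.536) and Dbt (10.1 ± 0.356). The libraries of Hibadh and Bckdha overlapped, as did those of Mccc2 and Dbt. At day 12 the order ran from Bckdha (53.3 ± 2.23 CPM per kb) through Hibadh (42.6 ± 1.36), Bcat2 (22.8 ± 1.04), Ivd (18.7 ± 0.863), Mccc1 (14.2 ± 0.832) and Mut (11.2 ± 0.455) to Mccc2 (8.37 ± 0.470), Dbt (8.23 ± 0.226) and Bckdhb (7.80 ± 0.309), which overlapped their neighbours, and Pcca was last at 6.52 ± 0.142. Pcca was also last at day 1, at 7.03 ± 0.396 CPM per kb. With the length of all annotated exons, Bckdha was first at day 0 (50.9 CPM per kb), Hibadh came to 9.76, below Bcat2 (16.8), Ivd (16.4), Dbt (9.93) and also Mut, and Mccc1 was last at 6.87. On that scale Mccc1 and Pcca were the lowest at day 1 (3.49 and 3.50) and at day 12 (3.18 and 3.24).

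Enzymes that work as complexes need their subunits together, so the ratio of subunit counts within each library was also compared, which does not depend on how libraries are scaled. Over 7 ratios and 3 comparisons, 21 two-sided exact permutation tests were run, and 19 had a Benjamini-Hochberg adjusted p under 0.05. With 5 libraries against 5 the smallest p these tests can give is 0.00794, which is 0.00926 after adjustment. The pairs Bcat2/Bcat1 and Bckdk/Ppm1k are not subunits of a complex and were included as well. Other gene pairs were not tested, so the share of all pairs that would pass is not known. Among single genes, groups did not overlap for 57.4% at day 1 and 64.6% at day 12 against day 0. Between days 12 and 1 this share was 52.5%.

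Of the 7 ratios, that of propionyl-CoA carboxylase shifted most at both times. Pccb, its beta subunit gene, was at 39.9 ± 1.23 CPM at day 0, 44.5 ± 1.13 CPM at day 1 and 51.9 ± 1.97 CPM at day 12, with log2 fold changes of 0.16 (edgeR adjusted p = 0.000161) and 0.38 (edgeR adjusted p = 1.54e-10), both under the fold limit, while Pcca fell. The log2 ratio of Pcca to Pccb was 0.25, 0.12, 0.08, 0.11 and 0.08 in the day 0 libraries, -1.36, -1.33, -1.22, -1.25 and -1.28 in the day 1 libraries and -1.57, -1.71, -1.60, -1.68 and -1.54 in the day 12 libraries. The groups were fully separate, and each step was downward. The differences were -1.41 at day 1, -1.75 at day 12 and -0.33 between day 12 and day 1 (each exact permutation p = 0.00794, adjusted p = 0.00926). Per length of the principal transcripts, Pcca stood at 0.978 ± 0.0502 (SD, n = 5) of Pccb at day 0, 0.366 ± 0.0140 at day 1 and 0.291 ± 0.0143 at day 12. With the length of all annotated exons these values were 0.581 ± 0.0298, 0.218 ± 0.00834 and 0.173 ± 0.00847.

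The alpha to beta ratio of 3-methylcrotonyl-CoA carboxylase went the same way. The log2 ratio of Mccc1 to Mccc2 was 1.71 to 1.79 at day 0, 1.07 to 1.29 at day 1 and 0.87 to 1.08 at day 12, so the cool groups were below day 0 and overlapped each other. It was lower by -0.60 at day 1 and -0.79 at day 12 (both exact permutation p = 0.00794, adjusted p = 0.00926) and by -0.18 from day 1 to day 12 (exact permutation p = 0.0159, adjusted p = 0.0175). Without day 1 replicate 3 the last difference was -0.15 with an adjusted p of 0.0526 in the exact permutation test. Per length, Mccc1 stood at 2.92 ± 0.0743, 1.93 ± 0.117 and 1.70 ± 0.113 of Mccc2 with principal transcripts, and at 0.863 ± 0.0220, 0.570 ± 0.0345 and 0.502 ± 0.0335 with all annotated exons, so which subunit is more abundant depends on the length used.

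In BCKDH, the counts of the other subunits were compared with those of Bckdhb. The log2 ratio of Bckdha to Bckdhb was 2.38 to 2.55 at day 0, 3.04 to 3.30 at day 1 and 3.09 to 3.24 at day 12, and was higher by 0.71 at day 1 and 0.68 at day 12 (both exact permutation p = 0.00794, adjusted p = 0.00926). The cool groups overlapped (difference -0.03, exact permutation p = 0.563). At day 1 this shift came with a higher Bckdha, and at day 12 with a lower Bckdhb. With total counts Bckdha was also higher at day 12 (0.26). Against Bckdhb, Dbt did not differ detectably at day 1 (difference -0.07, exact permutation p = 0.365) and was higher by 0.32 at day 12. Dld, the E3 dehydrogenase that BCKDH shares with other ketoacid dehydrogenases, was higher against Bckdhb by 0.57 at day 1 and 0.87 at day 12. The last 3 differences each had an exact permutation p of 0.00794. Per length of principal transcripts, Dld went from 2.998 ± 0.211 to 4.46 ± 0.411 and 5.47 ± 0.158 times Bckdhb.

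BCKDH is switched off by the kinase Bckdk and switched on by the phosphatase Ppm1k, and the balance of their transcripts moved toward the kinase. Ppm1k was at 7.86, 7.82, 8.55, 7.45 and 9.09 CPM in the day 0 libraries, 4.35, 5.90, 4.38, 4.31 and 4.45 CPM in the day 1 libraries and 3.49, 3.87, 3.34, 3.76 and 4.08 CPM in the day 12 libraries. The groups did not overlap. Ppm1k fell at both times, by log2 fold changes of -0.80 ± 0.0868 (edgeR adjusted p = 1.24e-08) and -1.14 ± 0.0883 (edgeR adjusted p = 2.50e-11). Bckdk was at 53.3 ± 0.772, 60.0 ± 1.25 and 71.0 ± 1.20 CPM, with log2 fold changes of 0.17 (edgeR adjusted p = 3.52e-06) and 0.41 (edgeR adjusted p = 5.65e-13), under the fold limit, or 0.60 at day 12 with total counts, which is past it. The log2 ratio of Bckdk to Ppm1k was 2.55 to 2.82 at day 0, 3.35 to 3.80 at day 1 and 4.09 to 4.40 at day 12, with differences of 0.98 at day 1, 1.55 at day 12 and 0.57 between them (each exact permutation p = 0.00794, adjusted p = 0.00926). These are transcript ratios, and the phosphorylation of BCKDH was not measured in these data.

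Bcat1, the cytosolic aminotransferase, moved against Bcat2. It was at 8.20 ± 0.963 CPM at day 0, 8.90 ± 0.493 CPM at day 1 and 12.6 ± 0.721 CPM at day 12, with log2 fold changes of 0.12 (edgeR adjusted p = 0.128) and 0.62 ± 0.0687 (edgeR adjusted p = 1.62e-08). It was called at day 12, and leaving out day 0 replicate 1 or day 0 replicate 4 brought the value to 0.58, just under the limit. The log2 ratio of Bcat2 to Bcat1 was lower by -0.96 at day 1 and -1.32 at day 12 (both exact permutation p = 0.00794, adjusted p = 0.00926). Per length of principal transcripts, Bcat2 was 11.7 ± 1.53 times Bcat1 at day 0, 5.95 ± 0.468 times at day 1 and 4.64 ± 0.379 times at day 12, and with all annotated exons it was 19.3 ± 2.54, 9.86 ± 0.775 and 7.70 ± 0.628 times.

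**Figure D3:**
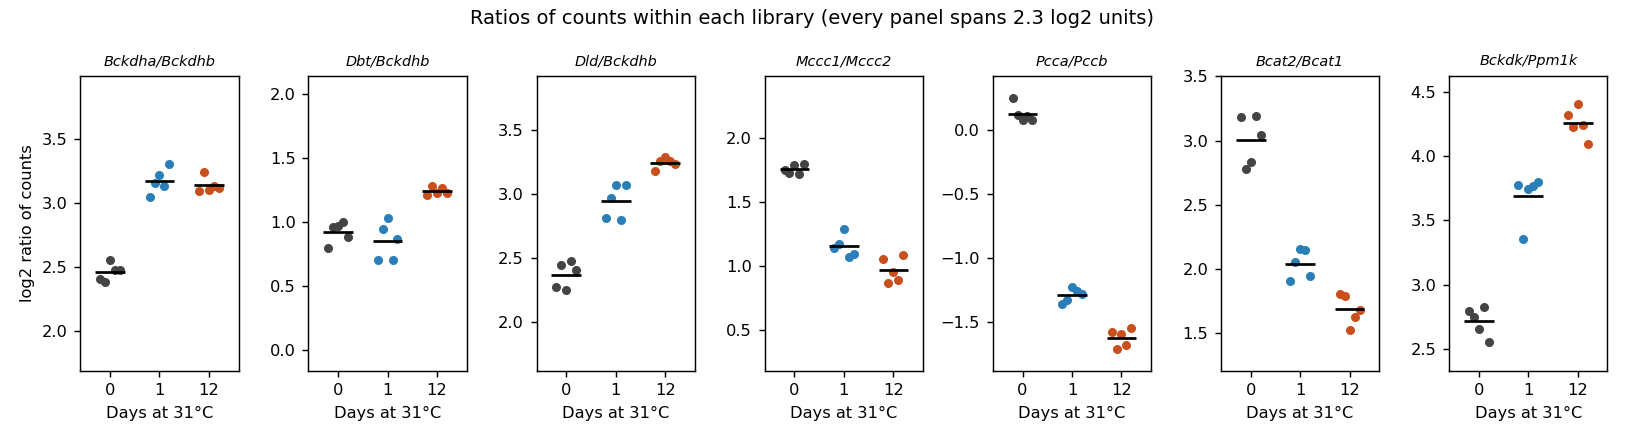
log2 ratio of counts (vertical axes, each spanning the same number of log2 units) for 7 gene pairs in each library, by days at 31°C, with points for libraries and a line for the group mean. Pcca/Pccb drops from about 0.13 at day 0 to -1.29 and -1.62, and Bckdk/Ppm1k climbs from 2.71 to 3.69 and 4.26.

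The other genes of BCAA handling, 25 in number, moved in both directions. At day 1, 1 was called higher (Echs1) and 3 lower (Ppm1k, Mcee and Mmaa), and by the adjusted p alone 11 were higher and 9 lower, shares of 25 genes to be read beside the 7.71%, 13.4%, 35.3% and 36.2% of all genes. At day 12, 3 were called higher (Slc7a5, Bcat1 and Hsd17b10) and 5 lower (Ppm1k, Auh, Aldh6a1, Mmaa and Klf15), with 10 higher and 10 lower by the adjusted p alone, beside 13.0%, 16.2%, 39.2% and 37.4% of all genes. Between day 12 and day 1, 1 was called higher (Mcee) and 1 lower (Auh), with 9 higher and 10 lower by the adjusted p alone, beside 10.6%, 8.53%, 34.3% and 32.8% of all genes. Their groups did not overlap for 19 of 25 genes in each comparison, beside 57.4%, 64.6% and 52.5% of all genes. The median log2 fold change of the 25 was 0.01 at day 1 and -0.003 at day 12, while the 10 breakdown genes had medians of -0.29 and -0.38.

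Mcee, the epimerase that prepares the substrate of the mutase, and Mmaa, a chaperone of its cobalamin cofactor, both fell with Mut at day 1. Mcee was at 13.7, 14.9, 13.8, 14.6 and 14.4 CPM at day 0, at 7.14, 7.43, 7.20, 7.14 and 6.68 CPM at day 1 and at 12.0, 10.9, 11.8, 11.8 and 11.9 CPM at day 12. The 3 groups were separate, with day 12 in the middle as for Mut. Its log2 fold change was -1.005 ± 0.0492 at day 1 (edgeR adjusted p = 7.07e-15) and -0.29 at day 12 (edgeR adjusted p = 7.06e-06), and day 12 was above day 1 by 0.72 ± 0.0499 (edgeR adjusted p = 6.00e-12). Mmaa fell from 12.3 ± 1.72 CPM to 4.86 ± 0.366 CPM at day 1 and 5.58 ± 0.434 CPM at day 12, with log2 fold changes of -1.34 (edgeR adjusted p = 7.27e-13) and -1.14 (edgeR adjusted p = 6.77e-12) and overlapping cool groups.

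Downstream in the leucine, isoleucine and valine branches, the genes went in different directions. Auh, the hydratase that follows 3-methylcrotonyl-CoA carboxylase, was at 64.8 ± 1.62 CPM at day 0, 60.2 ± 1.76 CPM at day 1 and 33.5 ± 1.31 CPM at day 12, and its fall at day 12 had a log2 fold change of -0.95 ± 0.0323 (edgeR adjusted p = 2.79e-18). Day 12 was also well below day 1 (-0.85 ± 0.0324, edgeR adjusted p = 7.31e-17). Aldh6a1, methylmalonate semialdehyde dehydrogenase of the valine branch, went from 198 ± 4.60 to 162 ± 4.71 and 125 ± 4.34 CPM, and was called at day 12 with a log2 fold change of -0.66 ± 0.0286 (edgeR adjusted p = 3.00e-16), or -0.47 with total counts, under the limit. Bbof1 on the opposite strand overlaps 18.6% of its exon bases and was not in the count table used here. Echs1, the short-chain enoyl-CoA hydratase shared with fatty acid oxidation, was at 83.1 ± 1.10, 126 ± 2.26 and 101 ± 5.17 CPM and was called higher at day 1 (0.60 ± 0.0303, edgeR adjusted p = 1.16e-14), close to the limit. Hsd17b10, the dehydrogenase of the isoleucine branch, rose at day 12 from 45.8 ± 2.16 to 76.2 ± 1.84 CPM (0.74 ± 0.0364, edgeR adjusted p = 4.25e-15).

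At the entry to the pathway, Slc7a5, a subunit of a plasma membrane transporter of large neutral amino acids, rose from 14.6 ± 1.14 CPM at day 0 to 28.1 ± 1.95 CPM at day 12 (0.94 ± 0.0545, edgeR adjusted p = 8.68e-14). At day 1 it was at 21.5 ± 1.14 CPM, and its log2 fold change of 0.56 was just under the limit (edgeR adjusted p = 2.46e-09). Slc25a44, the mitochondrial BCAA carrier, was at 41.8 ± 1.75, 40.0 ± 1.72 and 35.2 ± 1.45 CPM, with log2 fold changes of -0.06 (edgeR adjusted p = 0.143) and -0.25 (edgeR adjusted p = 2.69e-06). Klf15, a transcription factor known for control of amino acid breakdown genes in muscle and liver, was at 31.5 ± 1.02 CPM at day 0, 22.3 ± 1.43 CPM at day 1 and 15.4 ± 1.19 CPM at day 12, and fell at day 12 by a log2 fold change of -1.04 ± 0.0498 (edgeR adjusted p = 2.36e-15). The day 1 value of -0.50 (edgeR adjusted p = 2.16e-09) was under the limit. Dld was at 90.9 ± 5.82, 123 ± 3.90 and 109 ± 2.82 CPM, with log2 fold changes of 0.43 (edgeR adjusted p = 1.49e-10) and 0.26 (edgeR adjusted p = 7.29e-07), under the limit. The remaining 11 of these genes were not called in any comparison, and their log2 fold changes against day 0 lay between -0.42 and 0.32.

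**Figure D4:**
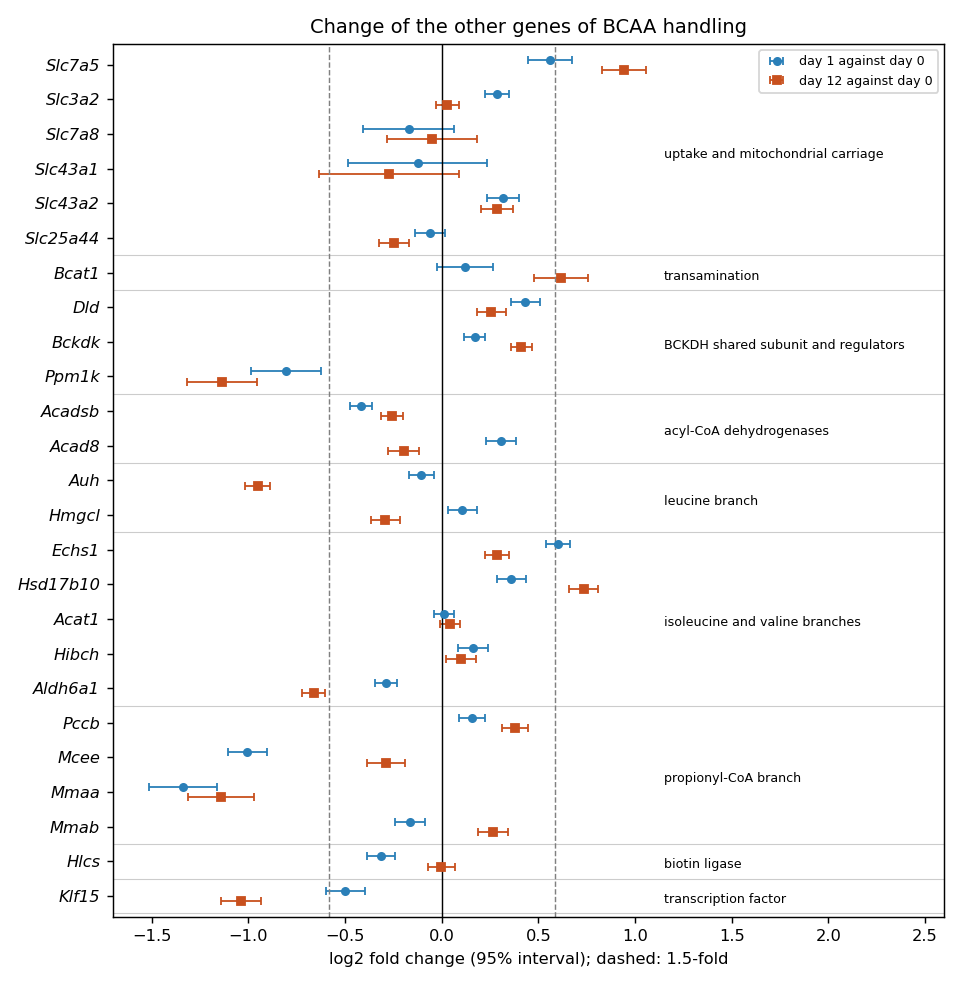
log2 fold change (horizontal axis) of the other 25 genes of BCAA handling at day 1 (circles) and day 12 (squares) against day 0, with 95% intervals, grouped by step, and dashed lines at 1.5-fold. Ppm1k, Mmaa, Mcee, Auh and Klf15 lie on the low side at 1 time or both, and Slc7a5 and Hsd17b10 at day 12 on the high side.

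Neighbouring pathways of mitochondrial oxidation served as a reference for the 10 genes. Of 16 TCA cycle genes none was called at either time, and the medians were 0.26 and 0.20. By the adjusted p alone, day 1 had 11 of them higher and 2 of them lower, while day 12 had 12 and 1, beside 35.3% and 36.2% of all genes at day 1 and 39.2% and 37.4% at day 12. The counts were the same at an unadjusted p under 0.05, and DESeq2 called none of them. With total counts 4 of them were called higher at day 12, beside 2982 of all 14293 genes with that scaling. Of 17 genes of mitochondrial fatty acid oxidation, 3 were called higher at day 1 (Cpt1a, Acaa2 and Eci2) and 3 at day 12 (Cpt1a, Acaa2 and Slc25a20), none was called lower, and the medians were 0.16 and 0.17. Of all genes, 7.71% were called higher at day 1 and 13.0% at day 12, and 13.4% and 16.2% were called lower. By the adjusted p alone, 15 fatty acid oxidation genes were higher and 1 lower after 1 day, beside 35.3% and 36.2% of all genes. After 12 days, 10 were higher and 3 lower, beside 39.2% and 37.4% of all genes. With total counts the day 12 counts were 15 and 0, with a median of 0.36. The same scaling gave 7748 higher and 3630 lower of all 14293 genes. The 10 BCAA breakdown genes, by comparison, had 9 of 10 values below 0 at each time. The median of all genes tested was -0.01 at day 1 and 0.01 at day 12. The difference between these lists was not tested.

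**Figure D5:**
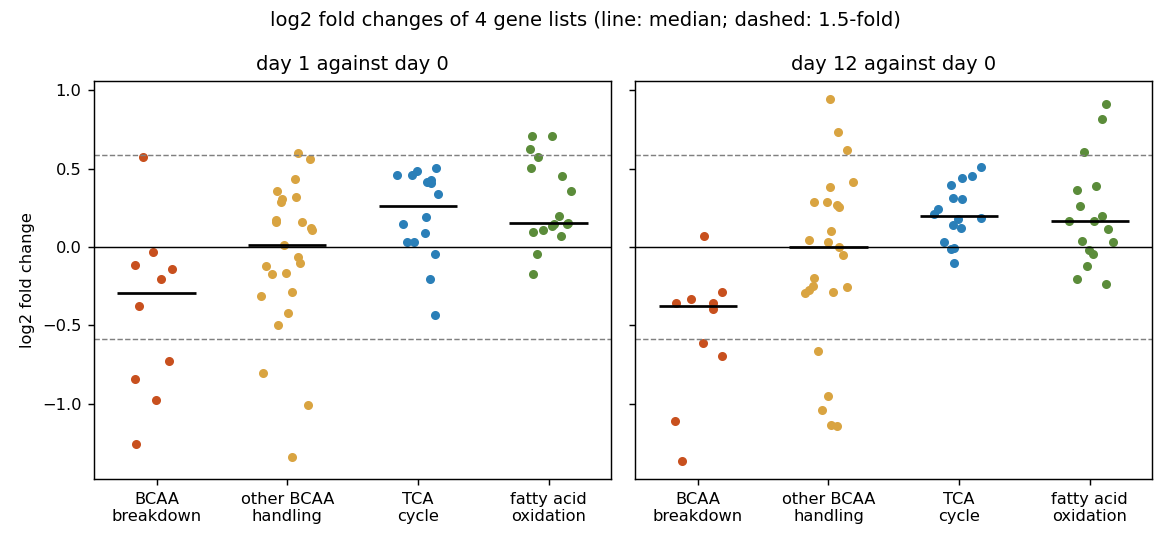
log2 fold change (vertical axis) of the genes of 4 lists at day 1 (left) and day 12 (right) against day 0. Points are genes, lines are list medians and dashed lines mark 1.5-fold. The medians of the 10 BCAA breakdown genes lie at -0.29 and -0.38, and those of the TCA cycle and fatty acid oxidation lists lie above 0.

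Across the 15 libraries the 10 genes followed several patterns. The Pearson correlation of log2 CPM was 0.99 between Pcca and Mccc1, 0.97 between Pcca and Bcat2, 0.91 between Bcat2 and Mut, and -0.88 between Mut and Bckdha. These values describe libraries that fall into 3 groups and share the group differences already given. Among 8915 other genes, each averaging 10 CPM or more, those most like each gene over the 15 libraries were Ppid (r = 0.996) and Hsp90b1 (0.994) for Pcca, Hltf (0.993) and Hsp90b1 (0.991) for Mccc1, Pfkl and Phyhd1 (both 0.992) for Bcat2, and l7Rn6 (0.993) and Ncbp2 (0.991) for Mut. Hsp90b1 was named for 2 of the 10, Pcca and Mccc1. For the E1 subunits the nearest were Gsta4 and Gpr180 (both 0.988) for Bckdha and Trappc2l (0.983) and Vkorc1 (0.981) for Bckdhb. The remaining ones were Tmed8 (0.965) and Pid1 (0.953) for Dbt, Mesdc2 (0.984) and Cnpy2 (0.983) for Ivd, Stk40 (0.946) and Lrsam1 (0.940) for Mccc2, and Ppp1r3c (0.981) and Ak1 (0.980) for Hibadh.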

How the data were processed

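RNA was sequenced on an Illumina platform as 15 libraries, 5 per group. With TopHat2 2.0.13 and Bowtie2 2.2.1 the authors aligned the reads to mm10 (mouse), and they made the deposited raw counts per gene with HTSeq. The strand setting was not given in the sources used here, so overlapping genes are named beside the values they could touch. Regularized log values and DESeq2 tables of mean scaled count, fold change and adjusted p, also deposited by the authors, were not used. A row of the count table is a gene symbol. The labels gave the groups and the replicate numbers.

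Genes were filtered with filterByExpr (minimum count 10), scaled by TMM and tested with edgeR 4.0.16 in R 4.3.3 by the quasi-likelihood test, all 15 libraries in 1 fit with no covariate, and p-values were adjusted by Benjamini-Hochberg over all 14293 genes. The study used DESeq2, which is an alternative here. Each SE is the absolute log2 fold change divided by the square root of F. The common biological coefficient of variation was 5.25%. Ratios used counts with 0.5 added and two-sided exact permutation tests, adjusted over 21 tests. Lengths, positions and overlaps came from GENCODE vM21 (GRCm38), where all 110 symbols looked up had 1 gene. Start site windows came from the RefSeq table. The scripts were tested on simulated data.

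The 10 genes and the gene lists were chosen with earlier results of these data known. Of the other pathway genes, Bcat1, Dld, Bckdk, Ppm1k, Pccb, Slc25a44 and Klf15 were always named, and the rest if called in at least 1 comparison. For each of the 10 genes, the 2 most correlated genes were named. Alternatives covered scaling, filters on low counts, DESeq2 1.42.0, the samples in the fit, the label number series, a replicate block, the call rule, the pseudocount and leaving out each library.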

Additional observations from a re-analysis of the deposited data

Results flagged for a closer look

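In 93 groups of 5 libraries (31 genes or ratios in 3 groups), 8 had a library whose gap to its nearest neighbour took an unusually large part of the group's range by Dixon's test, and chance gives about 1 in 20. Bckdhb was highest in day 0 replicate 1 (18.6 CPM), and the log2 ratio of Pcca to Pccb was highest in that library too (0.25). Ppm1k was highest in day 1 replicate 2 (5.90 CPM), where the log2 ratio of Bckdk to Ppm1k was lowest (3.35). Aldh6a1 was highest in day 1 replicate 3 (171 CPM). Slc25a44 was lowest in day 12 replicate 5 (32.7 CPM). In day 12 replicate 2, Mcee was lowest (10.9 CPM) and the log2 ratio of Bckdha to Bckdhb was highest (3.24).

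The effects of 12 days and of 1 day at 31°C differed, past both limits of the call, for 2 of the 24 named genes compared. Of all genes, 10.6% were called higher and 8.53% lower between days 12 and 1, so this count does not stand out. For Auh the effect at day 12 minus that at day 1 was -0.85 (edgeR adjusted p = 7.31e-17), and for Mcee it was 0.72 (edgeR adjusted p = 6.00e-12). All 5 day 12 libraries lay below all day 1 libraries for Auh and above them for Mcee.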

How the results depend on the processing

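With the replicate number as a replicate block, the calls among the 10 genes stayed at 0 higher and 4 lower in both comparisons with day 0 and at 0 between days 12 and 1, and among the 25 other genes at 1 and 3, 3 and 5, and 1 and 1. The numbers were not taken to pair the samples, since deviations of same-numbered libraries correlated at -0.03 to 0.04 over 15 pairs, none over 0.1. As a hint from the data and not the design, 10 of 15 libraries correlated best with a library of their own number, which 2 of the 10 candidates carry. With total counts, 1 of the 10 genes was called higher at day 1 (Bckdha, 0.59), 2 lower at day 12 (Bcat2, -0.50, and Bckdhb, -0.42, were lost), and 3 of the 25 other genes were called higher between days 12 and 1, while the values between days 12 and 1 reversed for Dbt (0.090), Mccc1 (0.038) and Pcca (0.063). With total counts, all genes called at day 12 against day 0 were 2982 higher and 1668 lower, in place of 1852 and 2320, and between days 12 and 1 they were 2248 and 843, in place of 1510 and 1219. By the adjusted p alone, the 10 genes gave 1 higher and 8 lower at day 1, 0 and 9 at day 12, and 2 and 6 between them, and the 25 other genes gave 11 and 9, 10 and 10, and 9 and 10. Echs1 was not called at day 1, leaving 0 other genes higher, with upper quartile scaling (0.58), at a mean of at least 10 CPM (0.56) and within the larger number series of the labels (0.58). At that mean, fewer genes were tested, and the other genes called lower were 1 at day 1 and 3 at day 12. Leaving out 1 library gave 0 to 1 of the 10 genes called higher at day 1 (Bckdha, 0.59, without day 0 replicate 3) and 1 to 2 of the other genes (Slc7a5, 0.60 without day 0 replicate 3 and 0.59 without day 1 replicate 3). The ratio of Bckdha to Bckdhb between days 12 and 1 was 0.0044 within the larger number series of the labels and -0.064 to 0.00050 on leaving out 1 library, the positive value without day 1 replicate 5. Exact sign-flip tests of paired ratios cannot go below p = 0.0625, and within the larger number series of the labels the ratios were given as values without a test. Depth did not limit the 10 genes, each with at least 769 counts per library.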
